A study of Mus musculus with 6 samples.

Results

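The genes described here are 10 genes of fibroblast growth factor (FGF) signalling in cultured mouse fat cells: the ligand genes Fgf1, Fgf2, Fgf7, Fgf10, Fgf18 and Fgf21, the receptor genes Fgfr1, Fgfr2 and Fgfr3, and Klb, the gene of the coreceptor beta-klotho. They were taken by name from the 53801 genes of the count table, and all 10 had a row in it. The cells were stromal vascular fraction cells, the mixture of progenitor, stromal and immune cells left when mature fat cells are removed from fat tissue. They came from inguinal white fat of mice labelled wild type or Ythdf1 knockout and were sequenced after 4 days of adipogenic induction in culture, with 3 libraries of each genotype that the series calls biological replicates. Both genotypes received the same induction. The labels give no strain, sex or age, do not name the part of Ythdf1 that was changed, and do not say whether animals were pooled.

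FGFs are secreted proteins that bind receptor tyrosine kinases on the cell surface, with heparan sulfate chains as helpers, and the receptors signal through adaptor proteins to the RAS and ERK kinases. Most FGFs act close to where they are made. FGF21 is different: it circulates as a hormone, binds heparan sulfate weakly, and needs beta-klotho beside FGFR1 to act, a combination found in fat. FGF10 and FGF7 are made by mesenchymal cells and act on the splice form of FGFR2 found in epithelium, and FGF10 is needed for fat tissue to develop. FGF1 is known as a feeding-induced factor of fat that responds to the adipocyte regulator PPARG. The protein missing or altered in the knockout, YTHDF1, binds RNA that carries the m6A mark.

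Library totals ran from 16619605 to 20089138 counts, so that 3 counts, taken as the detection floor, corresponded to between 0.149 and 0.181 CPM (counts per 1000000 counts of the library). Ythdf1 itself was at 43.8 ± 1.15 CPM in the knockout and 61.8 ± 1.34 in wild type (mean ± SD, n = 3 per genotype, as for all values given with ± here unless SE is named). All 3 knockout values were below all 3 wild-type values, with a log2 fold change, knockout over wild type, of -0.50 ± 0.08 (SE, edgeR adjusted p = 0.000378). This count covers the whole gene, and without the position of the change it is no full check of the knockout. Differences in isolation, culture or library preparation that coincide with genotype cannot be told apart from it. The 10 mature adipocyte markers listed, such as Adipoq and Plin1, were present in every library and passed the test as higher in knockout, with summed levels of 12090 to 16961 CPM in the knockout and 2085 to 3283 CPM in the wild type. Of 10 progenitor and fibroblast markers, 7 were lower, with summed levels of 5265 to 5591 CPM in the knockout and 7674 to 7846 CPM in the wild type. Of 8 macrophage markers, 7 were higher, and knockout replicate 3 had a summed level of 362 CPM against 142 to 157 CPM in the other knockout libraries and 48.8 to 58.1 CPM in wild type. The summed level of 8 epithelial markers was 15.1 to 22.0 CPM in wild type and 0.660 to 2.10 CPM in the knockout, and 5 of the 6 that could be tested passed the filter through the wild type alone. Thermogenic adipocyte markers were at 137 to 204 CPM in sum in the knockout and 21.8 to 38.0 CPM in the wild type, mostly through Elovl3 (129 ± 25.0 against 16.9 ± 5.76 CPM). Ucp1, Cidea and Cox8b were low and passed the filter through the knockout alone, and Dio2 had a log2 fold change of -0.98 that missed the threshold (edgeR adjusted p = 0.0699). Of the remaining lists, 1 of 7 tested endothelial, 0 of 2 tested mesothelial and 5 of 6 tested liver markers passed. Over all genes tested 44.3% did, and the 5 liver markers passed as lower in knockout. Beside the marker counts given here, 22.6% of all genes tested passed as higher in knockout and 21.7% as lower. In such bulk samples fewer cells of a type and less RNA per cell cannot be told apart. The part of cell make-up in any difference below was not tested.

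The control regions of 3 of the genes are shown first. Fgf21 and Klb, a hormone and its coreceptor, had the largest rises among the 10 genes, and Fgf7 the largest fall. A link between these sequences and the changes was not tested. Each sequence runs from 250 bases before to 50 bases after the start of the gene as given by RefSeq on GRCm38.p6, in the direction of transcription. Fgf21 is at chr7:45615441-45615740 on the minus strand, Klb at chr5:65348161-65348460 on the plus strand, and Fgf7 at chr2:126034408-126034707 on the plus strand. Capitals mark a match to one of the motifs searched.
Fgf21: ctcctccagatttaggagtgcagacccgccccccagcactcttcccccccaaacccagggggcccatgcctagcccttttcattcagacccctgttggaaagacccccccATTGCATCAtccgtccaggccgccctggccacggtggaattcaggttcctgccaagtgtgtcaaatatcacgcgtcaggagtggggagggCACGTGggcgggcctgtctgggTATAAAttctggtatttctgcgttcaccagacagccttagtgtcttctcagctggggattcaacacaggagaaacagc
Klb: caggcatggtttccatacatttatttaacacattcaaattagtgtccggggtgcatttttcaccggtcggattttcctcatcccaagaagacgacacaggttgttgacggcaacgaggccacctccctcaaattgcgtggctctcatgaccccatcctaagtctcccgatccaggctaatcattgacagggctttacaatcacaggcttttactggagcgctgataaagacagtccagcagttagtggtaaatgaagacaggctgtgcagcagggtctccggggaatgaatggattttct
Fgf7: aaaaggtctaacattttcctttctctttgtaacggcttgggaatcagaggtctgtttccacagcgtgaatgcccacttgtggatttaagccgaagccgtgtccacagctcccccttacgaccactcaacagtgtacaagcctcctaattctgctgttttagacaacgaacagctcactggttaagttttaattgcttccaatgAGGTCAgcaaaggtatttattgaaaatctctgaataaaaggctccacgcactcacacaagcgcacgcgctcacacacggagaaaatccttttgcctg

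Motifs were searched on both strands in these windows and in those of all 32851 promoters of the table. They were the nuclear receptor element AGGTCA, the direct repeat bound by PPAR and RXR, which is AGGTCA, any base and AGGTCA again and so contains the former, the amino acid response element bound by ATF4 (TGATGNAAT), the E-box (CACGTG), the cAMP response element (TGACGTCA), the AP-1 site (TGACTCA) and the TATA box (TATAAA). The Fgf21 window held a TATA box that begins 28 bases before the gene start, an E-box starting 50 bases before it, and an amino acid response element that reads on the other strand, its first base in this window being 140 bases before the start. Among all promoters 13.6% held that TATA box sequence, 7.15% the E-box and 0.965% the amino acid response element. The direct repeat was in 0.0396%, the cAMP response element in 1.79% and the AP-1 site in 5.2% of them, and none of the windows used here held one. The Fgf7 window held the single nuclear receptor element 47 bases before its start, found in 16.3% of promoters, and the Klb window held no match to these letters. RefSeq windows were used for 8 of the 10 genes. Windows on chromosome 18, where Fgf1 lies, were left out for these genes, and none was used for Fgfr1. Whether Fgf1 or Fgfr1 has a match is thus not given. Among the windows used, the single match outside the 3 printed ones was an E-box in that of Fgfr2. A match describes the letters in the window and says nothing of whether a factor binds there. A missing match covers these exact letters in the window alone. Variant forms of an element and sites outside the window were not searched.

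All 10 genes passed the low-count filter. Under an adjusted p of 0.05, 4 were higher in knockout (Fgf1, Fgf10, Fgf21 and Klb), 4 were lower (Fgf2, Fgf7, Fgf18 and Fgfr1), and Fgfr2 and Fgfr3 did not pass. Of all 14816 genes tested 44.3% passed, 22.6% as higher and 21.7% as lower, so a large share of calls is usual in this comparison. A change of at least 2-fold was seen in 2 of the higher genes (Fgf21 and Klb) and 3 of the lower ones (Fgf2, Fgf7 and Fgf18), where 8.95% and 6.69% of all genes tested passed with such a rise or fall. For 8 of the 10 genes no knockout value reached into the range of the wild type, as was so for 55.2% of all genes tested. The median log2 fold change of all 10 was 0.48, beside 0.01 over all genes tested. It lies between the values of Fgfr2 (0.39) and Fgfr3 (0.58), which did not pass, so with 4 rises and 4 falls it shows no common direction. Fgf21 passed the filter through the knockout libraries, where it is high, as 2 of its 3 wild-type libraries reached the filter level of 0.565 CPM.

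**Figure D1:**
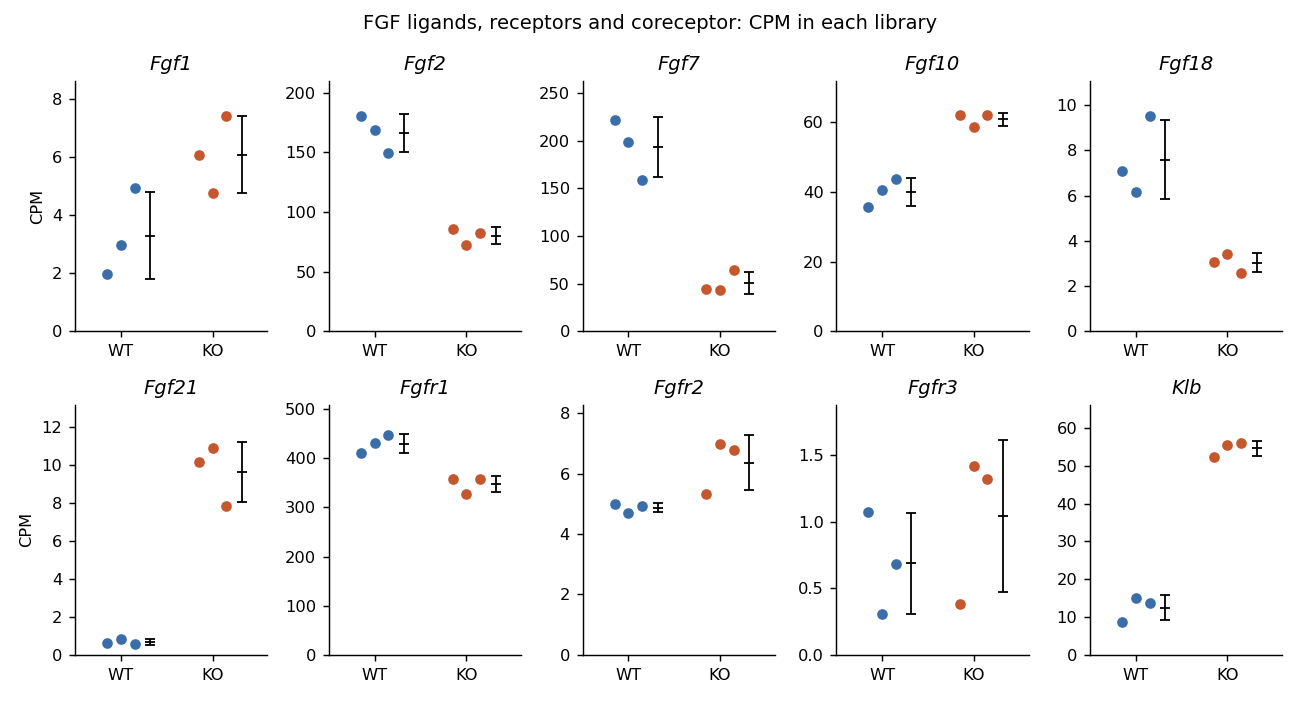
CPM (vertical axis, from 0, its own scale in each panel) of the 10 genes in the 3 wild-type (WT, blue) and 3 knockout (KO, orange) libraries, replicates 1 to 3 from left to right; black bars give the mean and SD. The genotypes are apart for 8 genes and overlap for Fgf1 and Fgfr3.

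The endocrine ligand Fgf21 (ENSMUSG00000030827, chr7:45613886-45615490, minus strand, GRCm38) had the largest difference of the 10 genes. Replicates 1 to 3 had 186, 192 and 161 raw counts in the knockout, and those of the wild type 11, 14 and 10. These correspond to 10.2, 10.9 and 7.85 CPM in the knockout and 0.622, 0.865 and 0.572 CPM in wild type. Every knockout library was far above every wild-type library, and the wild-type libraries were low but above the floor of 3 counts. The fold was 14.0 (95% interval 9.54 to 20.6), a log2 fold change of 3.81 ± 0.25 (SE, edgeR adjusted p = 1.11e-06). A rise of this size or more was seen in 0.236% of the genes tested.

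Its coreceptor gene Klb (ENSMUSG00000029195, chr5:65348314-65384007, plus strand) was higher as well. Klb was at 52.2, 55.4 and 56.1 CPM in the knockout and at 8.77, 15.1 and 13.7 CPM in wild type. All knockout values were above all wild-type values. The coefficient of variation was 3.77% in the knockout and 26.5% in the wild type, where replicate 1 was lowest. The fold was 4.37 (95% interval 3.41 to 5.61), a log2 fold change of 2.13 ± 0.16 (SE, edgeR adjusted p = 3.73e-06), a rise reached by 2.03% of the genes tested. Mature adipocyte markers were also higher in knockout. Any gene higher in knockout is high in the same libraries, and a link of these markers with Fgf21 or Klb was not tested.

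The main receptor gene for this pair, Fgfr1 (ENSMUSG00000031565, chr8:25513654-25575718, plus strand), differed little and in the other direction. It was at 358, 328 and 357 CPM in the knockout and at 411, 430 and 448 CPM in the wild type, so that the groups did not overlap. The fold was 0.808 (95% interval 0.704 to 0.928), a log2 fold change of -0.31 ± 0.09 (SE, edgeR adjusted p = 0.0169). That call ended without knockout replicate 1 (edgeR adjusted p = 0.053), wild-type replicate 2 (0.0674) or wild-type replicate 3 (0.0517). Per kb of exon, Klb stood to Fgfr1 at 0.317, 0.367 and 0.341 in the knockout libraries and at 0.0463, 0.0761 and 0.0662 in the wild-type libraries. The coreceptor transcript was thus scarcer than that of the receptor in every library, and less so in each knockout library than in any wild-type one (difference in log2 ratio 2.47, exact permutation test, 2-sided, p = 0.1). The size of such a ratio depends on the gene length used, but the difference between genotypes does not: with the longest transcript as the length, Klb was at 15.4 and Fgfr1 at 68.9 CPM per kb in the knockout.

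Fgfr2 and Fgfr3, the other receptor genes of the 10, were low. Fgfr2 was at 5.33, 6.99 and 6.77 CPM in the knockout and 4.98, 4.70 and 4.92 CPM in wild type. The groups did not overlap, but the log2 fold change of 0.39 ± 0.18 (SE) did not pass (edgeR adjusted p = 0.103), and its 95% interval ran from -0.01 to 0.78. Fgfr3 had 7, 25 and 27 counts in the knockout libraries and 19, 5 and 12 in those of the wild type, so the genotypes overlapped (log2 fold change 0.58, 95% interval -0.62 to 1.78, edgeR adjusted p = 0.425). This interval includes rises of the size of those of Fgf1 and Fgf10, and the coefficient of variation was 54.8% in the knockout and 55.5% in the wild type. Of the summed counts per kb of these 3 receptor genes, Fgfr1 took 97.4% to 98.5% in knockout and 98.5% to 98.9% in wild type. The table counts whole genes, so the splice forms of Fgfr2, which decide whether FGF7 and FGF10 can act through it, cannot be told apart. The annotated span of Fgfr2 also reaches into Ctbp2 on the same strand and shares 314 bases of exon with it. Ctbp2 had 478 to 586 counts in the knockout and 533 to 587 in the wild type, several times those of Fgfr2, so the count of Fgfr2 is uncertain.

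Fgf7 and Fgf10, close relatives made by mesenchymal cells, went opposite ways. Fgf7 (ENSMUSG00000027208, chr2:126034658-126091185, plus strand), also called keratinocyte growth factor, was at 44.2, 43.2 and 64.3 CPM in the knockout and at 222, 199 and 159 CPM in the wild type. The highest knockout value, in replicate 3, was well below the lowest wild-type value. The fold was 0.262 (95% interval 0.199 to 0.346), a log2 fold change of -1.93 ± 0.18 (SE, edgeR adjusted p = 2.98e-05), and 1.9% of the genes tested fell as far or further. Knockout replicate 3 also had the most macrophage RNA, and without this library the log2 fold change of Fgf7 was -2.14. A link of Fgf7 with macrophage RNA was not tested.

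Fgf10 (ENSMUSG00000021732, chr13:118669791-118792115, plus strand) was at 62.1, 58.8 and 62.0 CPM in the knockout and at 35.7, 40.6 and 43.7 CPM in wild type. All knockout values were above all wild-type values and close to each other, with a coefficient of variation of 3.10%. The rise was smaller than those of Fgf21 and Klb, at a fold of 1.52 (95% interval 1.32 to 1.76) and a log2 fold change of 0.61 ± 0.09 (SE, edgeR adjusted p = 0.000304). Fgf7 exceeded Fgf10 per kb of exon by 8.81, 6.94 and 5.14 times in the wild-type libraries and by 1.01, 1.04 and 1.47 times in the knockout libraries. The mean log2 of this ratio was 0.21 ± 0.30 in the knockout and 2.77 ± 0.39 in the wild type, a difference of -2.56. The exact permutation test, 2-sided, gave p = 0.1, the smallest that 3 libraries against 3 allow, and 0.133 after Benjamini-Hochberg adjustment over the 4 ratios computed, and so it did for Klb over Fgfr1. The ratio of Fgf10 to its receptor gene Fgfr2 per kb overlapped between the genotypes (difference in mean log2 ratio 0.23, exact permutation p = 0.3, adjusted 0.3).

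The growth factor genes Fgf2 and Fgf18 were lower in knockout. Fgf2 (ENSMUSG00000037225, chr3:37348346-37410108, plus strand), basic FGF, a mitogen for progenitor cells that is widely added to cultures, was at 85.9, 72.4 and 82.0 CPM in the knockout and at 180, 169 and 149 CPM in the wild type. Its fold was 0.482 (95% interval 0.414 to 0.561), with no overlap between genotypes (log2 fold change -1.05 ± 0.10 SE, edgeR adjusted p = 9.28e-06). Fgf2 shares 640 bases of exon with Nudt6 on the opposite strand, and the strand setting of the counting is not given in the sources used here. Nudt6 was at 2.40 ± 0.315 CPM in the knockout and 1.92 ± 0.375 in wild type, far below Fgf2 in both.

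Fgf18 (ENSMUSG00000057967, chr11:33117430-33147400, minus strand), best known from bone and cartilage, was low, at 3.08, 3.41 and 2.58 CPM in the knockout and 7.07, 6.18 and 9.54 CPM in wild type. The groups did not overlap, and the fold was 0.397 (95% interval 0.285 to 0.554, log2 fold change -1.33 ± 0.22 SE, edgeR adjusted p = 0.000498). Of the 10 progenitor and fibroblast markers 7 were likewise lower in knockout, while Pdgfra, Ly6a and Dcn did not pass. Any gene lower in knockout is low in the same libraries, and a link with Fgf2, Fgf7 or Fgf18 was not tested.

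Fgf1 (ENSMUSG00000036585), acidic FGF, which binds all the FGF receptors, was at 6.05, 4.77 and 7.41 CPM in the knockout and at 1.98, 2.97 and 4.92 CPM in wild type. Wild-type replicate 3 lay above knockout replicate 2, so the genotypes overlapped. The fold was 1.85 (95% interval 1.16 to 2.95, log2 fold change 0.89 ± 0.30 SE, edgeR adjusted p = 0.0346). The call was lost without knockout replicate 1 (edgeR adjusted p = 0.0785), knockout replicate 3 (0.0875), wild-type replicate 1 (0.107) or wild-type replicate 2 (0.109), more libraries than for any other of the 8. Fgf2 stood to Fgf1, both widely acting ligands, at 73.4, 45.9 and 24.5 per kb in the wild-type libraries and at 11.4, 12.2 and 8.91 in the knockout libraries, without overlap (exact permutation p = 0.1, adjusted 0.133).

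**Figure D2:**
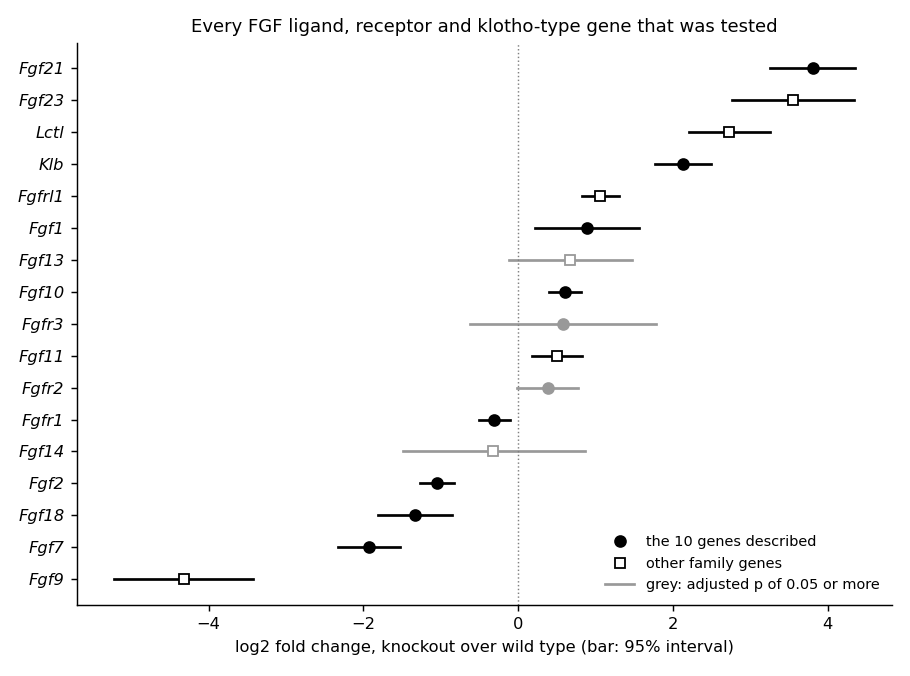
Log2 fold change, knockout over wild type (horizontal axis), with its 95% interval, for the 10 genes (filled circles) and the other FGF ligand, receptor and klotho-type genes that could be tested (open squares); grey marks an adjusted p of 0.05 or more. The estimates run from -4.32 for Fgf9 to 3.81 for Fgf21.

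Levels can be set between genes per kb of exon. In wild type, on this scale, Fgf7 was highest at 59.5 ± 9.90 CPM per kb, followed by Fgfr1 at 43.5 ± 1.86, Fgf2 at 24.5 ± 2.33, Fgf10 at 8.70 ± 0.874, Fgf18 at 6.40 ± 1.47 and Klb at 2.75 ± 0.728. Fgf21 (0.722 ± 0.165), Fgf1 (0.602 ± 0.273), Fgfr2 (0.471 ± 0.0143) and Fgfr3 (0.0964 ± 0.0535) came last. The values of Fgf10 and Fgf18 overlapped, as did those of Fgf21 with Fgf1 and of Fgf1 with Fgfr2. In knockout the order was Fgfr1 at 35.2 ± 1.73 CPM per kb, Fgf7 at 15.6 ± 3.66, Fgf10 at 13.3 ± 0.411, Klb at 12.0 ± 0.453, Fgf2 at 11.8 ± 1.03 and Fgf21 at 10.2 ± 1.69. Of these neighbours Fgf7 and Fgf10, Klb and Fgf2, and Fgf2 and Fgf21 overlapped. Fgf18 (2.55 ± 0.350), Fgf1 (1.11 ± 0.241), Fgfr2 (0.616 ± 0.0872) and Fgfr3 (0.145 ± 0.0796) came last. Among 14807 tested genes on the same scale, Fgf21 stood above 17.4% in wild type and 72.1% in knockout, and Klb above 40.4% and 75.8%, while Fgf7 stood above 95.4% and 81% and Fgfr1 above 93.6% and 91.5%. With the longest transcript as the length, Fgfr1 (85.3) stood above Fgf7 (72.3) in wild type, with overlapping values. Fgfr2 (1.10) then came before Fgf1 (0.825) and Fgf21 (0.722), and in knockout Klb (15.4) came before Fgf10 (14.8), so these places depend on the length used.

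Summed over the 6 ligand genes, the make-up of the FGF transcripts differed between genotypes. Fgf7 held 54.3% to 62.3% of the summed counts per kb in the wild-type libraries and 25.1% to 34.6% in the knockout libraries. Fgf10 held 7.08% to 10.6% in wild type and 23.6% to 24.9% in knockout, and Fgf21 0.596% to 0.895% in wild type and 14.4% to 22.1% in knockout. The share of Fgf2 moved less, from 24.2% to 24.5% in wild type to 20.5% to 23.4% in knockout. Fgf18 held 5.12% to 8.94% and 3.81% to 5.52%, and Fgf1 0.33% to 1% and 1.68% to 2.37%. Wild-type cultures were thus led by a single ligand transcript, while in each knockout culture 4 ligand transcripts held at least 14.4%.

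**Figure D3:**
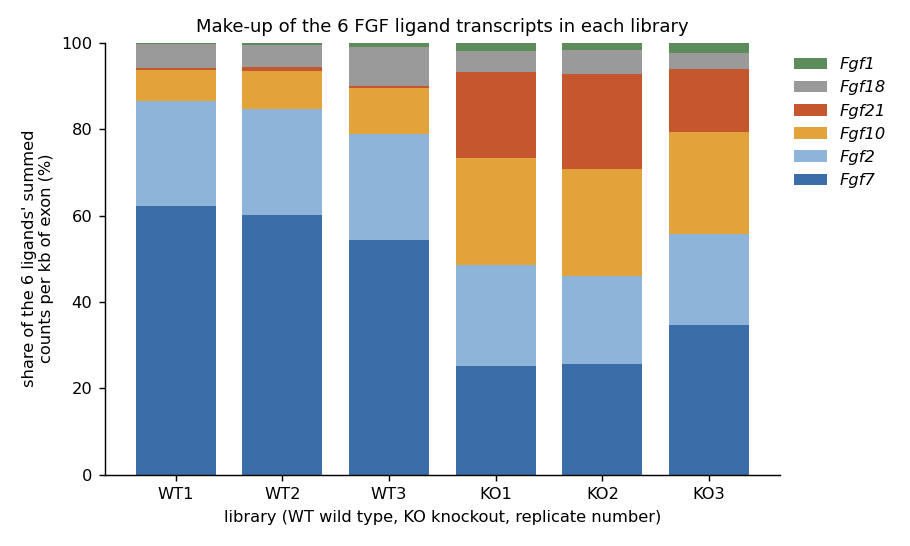
Share of each of 6 ligand genes in their summed counts per kb of exon (vertical axis, %), for each library. Fgf7 (dark blue) takes 54.3% to 62.3% in the wild-type libraries and 25.1% to 34.6% in the knockout libraries, where Fgf10 (yellow) and Fgf21 (red) take larger shares.

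The other FGF ligand genes were mostly too low to test. Of 16, 5 could be tested, and 6 (Fgf3, Fgf4, Fgf6, Fgf15, Fgf17 and Fgf20) had 0 counts in every library, which allows up to the floor of 0.149 to 0.181 CPM. Fgf23 and Fgf11 were higher and Fgf9 was lower. The gene of the phosphate-regulating bone hormone, Fgf23, had 68, 61 and 81 counts in the knockout libraries against 3, 5 and 8 in those of the wild type (3.72 ± 0.241 against 0.312 ± 0.144 CPM, log2 fold change 3.55 ± 0.36 SE, edgeR adjusted p = 1.51e-05). It reached the filter level in the knockout libraries alone, and Fgf9 in the wild-type libraries alone, so that each entered the test through the genotype where it is high. The coreceptor gene for Fgf23, Kl, alpha-klotho, had 0 counts in every library. Fgf9, a ligand of epithelium and mesothelium, had 62, 40 and 51 counts in the wild-type libraries and 3, 2 and 3 in the knockout libraries, a ratio of scaled summed counts, wild type over knockout, of 21.0 with a counting interval of 10.4 to 49.4 (95%, exact binomial). The epithelial markers had a summed level of 15.1 to 22.0 CPM in the same wild-type libraries and of 0.660 to 2.10 CPM in the knockout, and their part in the difference was not tested. Fgf11, an intracellular FGF homologous factor, was at 24.2 ± 1.63 against 17.1 ± 3.57 CPM (edgeR adjusted p = 0.0163). That call ended without knockout replicate 1 (edgeR adjusted p = 0.0548) or wild-type replicate 1 (0.0528). Fgf13 and Fgf14, of the same subfamily, did not pass, with log2 fold changes of 0.67 and -0.32 (edgeR adjusted p = 0.155 and 0.667).

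Receptor-like and coreceptor genes outside the 10 were higher in knockout where they could be tested, 2 of 2, against 22.6% of all genes tested. Fgfrl1, which encodes an FGF receptor without a kinase domain, was at 90.8 ± 5.68 CPM in the knockout and 43.5 ± 5.95 in the wild type (log2 fold change 1.06 ± 0.11 SE, edgeR adjusted p = 1.3e-05). Lctl, a klotho family gene, was at 8.48 ± 0.477 against 1.28 ± 0.388 CPM (log2 fold change 2.73 ± 0.24 SE, edgeR adjusted p = 5.4e-06). Fgfr4 had at most 3 counts in a library.

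Across the 89 other pathway genes tested, from 9 lists of ligands, receptors, cofactors, signalling proteins, targets and regulators, 20 (22.5%) were higher and 29 (32.6%) lower in knockout. Over all genes tested the shares were 22.6% and 21.7%, so the rises were at the usual share. The median log2 fold change was -0.11 beside 0.01 over all genes. Falls outnumbered rises among the genes of heparan sulfate and of membrane partners. Of 14 tested enzymes that build or edit heparan sulfate, the sugar chain that holds FGFs at their receptors, 0 rose and 8 fell (57.1%, against 21.7% of all genes tested), with a median log2 fold change of -0.55. The sulfotransferase gene Hs6st2 was at 9.36 ± 2.91 against 63.3 ± 16.3 CPM in the knockout and wild type. The sulfatase gene Sulf1, whose product trims the sulfate groups that FGFs need, was at 120 ± 28.9 against 353 ± 65.7 CPM. The chain-building genes Ext1 and Ext2 had log2 fold changes of -0.91 and -0.61.

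Of 11 tested core proteins that carry these chains, 1 rose and 5 fell, or 54.5% called against 44.3% of all genes tested. Sdc2 was at 105 ± 2.97 CPM in the knockout and 205 ± 3.79 in wild type, Gpc4 at 68.8 ± 2.84 against 115 ± 5.48, Sdc1 at 132 ± 22.4 against 214 ± 29.6 and Gpc1 at 35.7 ± 8.15 against 65.8 ± 10.5. Gpc6, with a log2 fold change of -0.56, was the other that fell. Gpc3 rose (log2 fold change 0.44), and its call ended without knockout replicate 3 (edgeR adjusted p = 0.0608), wild-type replicate 1 (0.055) or wild-type replicate 2 (0.0968). Among 5 tested binding and membrane partners, 4 fell (80%, against 21.7% of all genes tested). Ncam1, an adhesion protein that binds FGFR1, was at 37.2 ± 6.42 against 175 ± 10.6 CPM. The others that fell were the cadherin gene Cdh2 (log2 fold change -1.07), Flrt2 (-0.81) and the FGF carrier gene Fgfbp3 (-0.90). Flrt3 rose, by 0.75 on the log2 scale, a call that ended without wild-type replicate 2 (edgeR adjusted p = 0.0558).

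Inside the cell, 8 of 22 adaptor and kinase genes passed, 3 as higher and 5 as lower. That is 36.4% against 44.3% of all genes tested, and the median log2 fold change was -0.02. Frs2, the docking protein of activated FGF receptors, fell by 0.52 on the log2 scale, as did Gab1 (by 0.40), Braf (by 0.35) and Nras (by 0.27). The calls of Gab1 and Nras each ended without any of 3 libraries. These were knockout replicate 2 and wild-type replicates 1 and 3 for Gab1 (edgeR adjusted p of 0.0758, 0.103 and 0.0618) and knockout replicate 1 and wild-type replicates 1 and 2 for Nras (0.091, 0.0509 and 0.0771). Stat5a, a transcription factor activated by tyrosine kinases, rose by 1.04 on the log2 scale.

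Genes that ERK signalling switches on passed about as often as other genes. Of 10 tested feedback inhibitors 2 rose and 2 fell, and of 10 transcription factors and cyclin genes 2 rose and 3 fell, or 40% and 50% called against 44.3% of all genes tested. The median log2 fold changes were -0.09 and -0.07. Spry4 was at 26.6 ± 3.93 CPM in the knockout and 14.9 ± 3.25 in wild type, and the phosphatase gene Dusp4 at 38.5 ± 5.41 against 22.8 ± 4.41. Spry1 was at 8.19 ± 0.820 against 12.4 ± 0.728 CPM and Il17rd, a membrane inhibitor of FGF signalling, at 7.21 ± 1.47 against 12.7 ± 0.989. Dusp6, often read as a gauge of FGF and ERK activity, was at 14.6 ± 4.40 against 16.5 ± 0.980 CPM, short of the threshold (edgeR adjusted p = 0.475). Without knockout replicate 3 it passed as lower (log2 fold change -0.44, edgeR adjusted p = 0.0289). The cyclin D1 gene Ccnd1 was at 32.8 ± 6.04 against 102 ± 2.61 CPM and Etv4 at 0.967 ± 0.189 against 3.78 ± 0.990. Fosl1 rose, at 110 ± 8.87 against 54.5 ± 11.5 CPM, and Jun by 0.33 on the log2 scale. Etv1 fell by 0.82 on the log2 scale, a call that ended without knockout replicate 1 (edgeR adjusted p = 0.0611), knockout replicate 2 (0.0564) or wild-type replicate 1 (0.08).

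Of 10 genes of factors known to regulate Fgf21, 7 rose and 1 fell, where 22.6% and 21.7% of all genes tested did so, and the median log2 fold change was 1.25. Ppara, the receptor that drives Fgf21 in the fasting liver, was at 13.5 ± 4.15 CPM in the knockout and 1.18 ± 0.377 in wild type. Pparg, through which Fgf21 is induced in fat cells, was at 131 ± 14.4 against 29.8 ± 5.50 CPM, Ppargc1a at 15.9 ± 1.85 against 2.03 ± 1.10 and Nr1h3 at 57.1 ± 6.91 against 14.7 ± 3.91. Mlxipl, the gene of the carbohydrate response factor ChREBP, was at 77.6 ± 6.44 against 6.34 ± 3.36 CPM. Rxra and Ddit3 rose by 0.34 and 0.54 on the log2 scale. Atf4 was at 170 ± 12.7 against 181 ± 3.76 CPM, short of the threshold (edgeR adjusted p = 0.418), as was Nr4a1 (0.407). The Fgf21 window printed above held a match to the ATF4 motif, and whether ATF4 acts there was not tested. All 10 mature adipocyte markers were also higher in knockout. A link of any of the listed regulators with Fgf21 was not tested. Creb3l3, a liver and gut factor, fell by 1.94 on the log2 scale. Of 6 liver markers 5 were lower as well. The summed level of the 6 was 16.9 to 23.9 CPM in the knockout and 37.2 to 50.3 CPM in the wild type. Any gene lower in knockout is low in the same libraries, and a link of these markers with Creb3l3 was not tested.

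**Figure D4:**
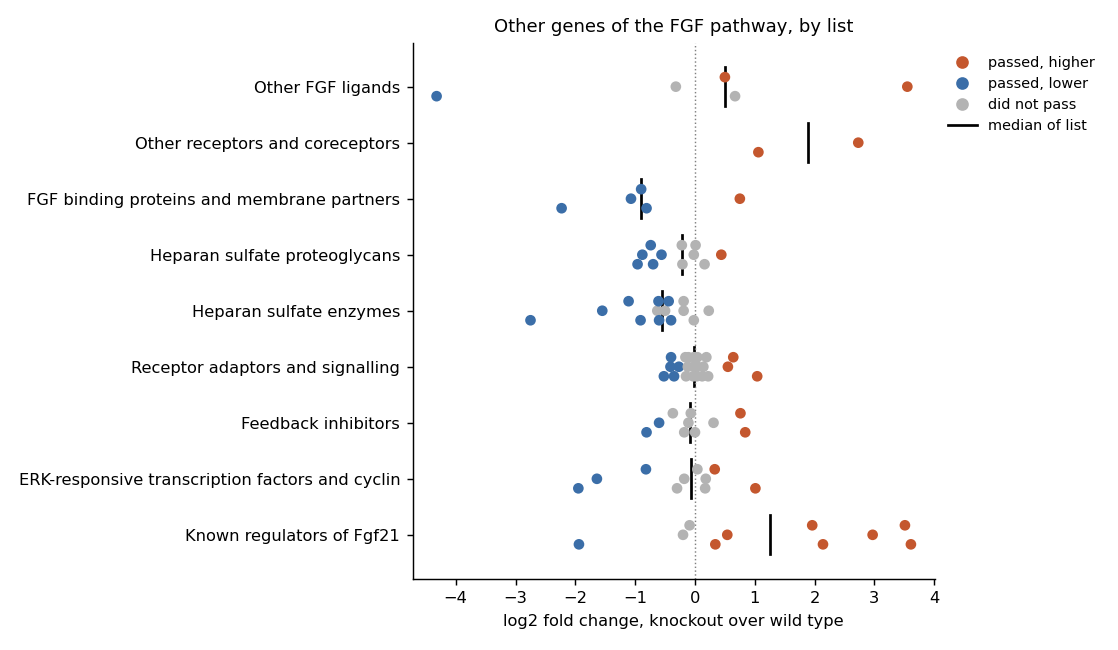
Log2 fold change, knockout over wild type (horizontal axis), of each tested pathway gene, in rows by list; orange and blue points passed as higher and lower, grey points did not pass, and the black tick is the median of the list. Heparan sulfate enzymes show no orange point, and regulators of Fgf21 have a median of 1.25.

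The mark read by YTHDF1 sits within short motifs of which GGACT is a common form. The longest coding transcript of each of the 10 genes held between 2 and 8 copies, or 0.486 (Fgf10) to 2.76 (Fgf18) per kb, where the median over 13148 tested coding genes was 1.05 per kb and 92.8% held at least 1. Fgf18, which fell, and Fgf21 and Klb, which rose, were in the upper range, with 97.0%, 90.3% and 88.1% of these genes below them. Fgf7 and Fgf10 were in the lower range, with 31.1% and 16.4% below. Methylation of these transcripts was not measured in these files.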

How the data were processed

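Cultures of 3 wild-type and 3 Ythdf1 knockout samples were sequenced, as rRNA-depleted total RNA read in pairs of 150 bases, per the labels' protocols. The authors deposited raw counts per Ensembl gene, not normalized. STAR and featureCounts, with mm10 and GRCm38, are named in the submitters' processing notes. Tool versions, the annotation, the strand setting and how multiply mapped reads were handled were not given in the sources used here, so counts of overlapping genes are uncertain.

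Symbols and exon lengths came from GENCODE mouse release 21 (53706 of 53801 identifiers). Counts were fitted over all genes with edgeR 4.0.16 in R 4.3.3: filterByExpr (minimum count 10, total 15; 14816 genes kept), TMM, robust dispersions and edgeR's robust quasi-likelihood F test in its legacy form, with genotype as the sole term, with Benjamini-Hochberg adjustment at 0.05. CPM are relative to TMM-scaled totals of kept genes. SE and 95% intervals derive from the F statistic. Replicates are biological per the series text, and p-values cover the spread between them alone. The fit was tested on simulated counts.

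The 10 genes, the pathway lists and the marker lists were chosen with earlier results of these data known, and list counts are descriptions. Pathway genes were named as the 4 with the smallest p per list among those that passed; some of these are not reported here. Flrt3, Gpc3, Gpc6, Gab1, Nras, Braf, Etv1, Dusp6, Fgf13, Fgf14, Rxra, Ddit3, Atf4, Nr4a1, Mlxipl and Creb3l3 were named after their values were seen. Alternatives were RLE factors, DESeq2 1.42.0, 2 other low-count filters, a replicate block, a covariate for the ending of each library name (L0 or L1, a term the labels leave undefined), each replicate left out, and another gene length. Promoters came from RefSeq (GRCm38.p6). Floors and counting intervals cover counting error only.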

Additional observations from a re-analysis of the deposited data

How the results depend on the processing

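The 4 higher and 4 lower calls among the 10 genes kept their number with RLE factors, DESeq2, both other low-count filters, the replicate block and the library suffix as a covariate. With 1 replicate left out each number ran from 3 to 4, the losses being Fgf1 and Fgfr1 as given above. Among the other pathway genes 20 were higher and 29 lower, and 18 to 21 and 26 to 30 with 1 replicate left out. With the replicate block these numbers were 20 and 28. The labels do not say that a shared number marks a shared animal or day, same-numbered samples had correlated deviations of -0.203 to 0.031, and 2 of 6 samples correlated best with their own number, so the block was not used as the main fit. The log2 fold changes of the 10 genes kept their direction under every alternative run. With 1 replicate left out, 2 genes that did not pass changed sign: Fgf14 ran from -0.86 to 0.22 (0.07 without knockout replicate 3, 0.22 without wild-type replicate 3) and Nr4a1 from -0.32 to 0.03 (0.03 without wild-type replicate 1). Dusp6 ran from -0.44 to 0, which it reached without knockout replicate 1; the cause was not tested. The longest transcript in place of all exons moved 14 of 20 levels per kb by more than their SD. Precision is limited by low counts for Fgfr3 and Fgf9, which had at most 27 and 3 counts in a knockout library.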
